A study of Mus musculus with 12 samples.

Results

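The ribosome biogenesis genes described here are 36 mouse genes, taken from a list of named symbols. The list was chosen with earlier results of these data known. Its counts beside the shares of all genes are therefore a description and not an independent test of the list. Each was represented by its brightest array probe, chosen by the mean over all arrays among probes whose RefSeq accession belongs to that symbol, and all 36 were among the 22753 genes tested. Of the members, 35 encode parts of the RNA polymerase I machinery, snoRNA-guided modification complexes, assembly factors of either ribosomal subunit or abundant nucleolar proteins. The remaining member, Odc1, encodes ornithine decarboxylase, the rate-limiting enzyme of polyamine synthesis, and is not a ribosome factor. The study measured total RNA from splenic follicular B cells of male C57BL/6J mice on Agilent one-colour arrays, to ask why such cells lacking Bach2 proliferate poorly after stimulation through the B cell receptor. Bach2 encodes a bZIP transcription factor that mostly represses its targets. The groups were Bach2-/- cells stimulated for 24 h by an anti-IgM Fab' at 10 µg/mL, WT cells after the same 24 h, Bach2-/- cells at 0 h and WT cells at 0 h. Each group held 3 arrays, numbered 1 to 3 in the labels, and no group had another allele or agent. The labels give neither the age of the mice nor the design of the Bach2 deletion. Nor do they tell if the numbered samples were different mice or cultures, and the p-values therefore speak only to the spread among these arrays, and that spread may be technical. A level is the log2 of an array's background-subtracted signal over the 75th percentile of that array, called the log2 signal below.

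Ribosome biogenesis begins in the nucleolus, where RNA polymerase I transcribes the ribosomal DNA into a long precursor RNA. Box C/D particles methylate that precursor and box H/ACA particles convert chosen uridines to pseudouridine, while the small subunit (SSU) processome and the 60S assembly factors fold it, cut it and load it with ribosomal proteins. Resting lymphocytes have small nucleoli, and antigen receptor signals that drive growth enlarge them. Many genes of this kind are known targets of the transcription factor MYC, which binds the E-box CACGTG.

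The promoters of the members are shown first because the E-box is the element that MYC is known to use. RefSeq promoter sequences of build GRCm38.p6 (250 bases before to 50 bases after a start) matched 31 of the 36 members. Fbl, Rrp12, Bop1, Rrs1 and Npm1 were not matched. The letters CACGTG, searched on both strands, occurred in the promoters of 8 of the 31 matched members (25.8%), in 14.7% of 102 other ribosome biogenesis genes and in 8.09% of all 27025 genes of the same table. The letters TGANTCA are the core of AP-1 and MARE sites, and BACH2 is known to bind sites with this core. They occurred in 0 of the 31 members, in 1.96% of the other ribosome biogenesis genes and in 8.97% of all genes. The 8 members with a CACGTG are printed as 30-base windows on the strand of the gene, with the E-box in capitals.
Mybbp1a: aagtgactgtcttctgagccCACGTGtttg
Wdr43: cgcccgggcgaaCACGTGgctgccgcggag
Utp20: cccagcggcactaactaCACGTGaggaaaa
Imp4: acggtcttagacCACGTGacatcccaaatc
Tsr1: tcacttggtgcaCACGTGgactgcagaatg
Pes1: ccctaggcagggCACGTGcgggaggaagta
Nop2: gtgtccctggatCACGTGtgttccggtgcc
Nle1: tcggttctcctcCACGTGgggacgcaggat
The windows lie at chr11:72441347-72441376 (Mybbp1a, plus strand), chr17:71616220-71616249 (Wdr43, plus), chr10:88826765-88826794 (Utp20, minus), chr1:34439696-34439725 (Imp4, plus), chr11:74898092-74898121 (Tsr1, plus), chr11:3963965-3963994 (Pes1, plus), chr6:125131811-125131840 (Nop2, plus) and chr11:82908355-82908384 (Nle1, minus). Counted from the first transcribed base as 0, the E-box began before the start in Imp4 (-121) and Nop2 (-60). In the other 6 it began 2 to 40 bases after it. The 250 bases before the start of Nop2, which encodes a 60S assembly factor and rRNA methyltransferase, are given in full at chr6:125131633-125131882 on the plus strand.
Nop2 upstream: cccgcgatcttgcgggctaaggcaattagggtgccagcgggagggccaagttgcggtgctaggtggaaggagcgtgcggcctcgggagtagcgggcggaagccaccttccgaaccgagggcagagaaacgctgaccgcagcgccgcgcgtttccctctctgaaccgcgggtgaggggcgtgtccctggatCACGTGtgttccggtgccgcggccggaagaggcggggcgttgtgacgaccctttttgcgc
A match describes these letters in this window and is neither a measured binding site nor a cause of any change. The sets of genes were not matched for base composition or for expression in these cells, and the shares were not tested.

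The members lie on 17 chromosomes, with 6 on chromosome 1 and 6 on chromosome 11. Every member was well above background on all 12 arrays, with no saturated probe and no missing value. The 75th percentile that scales each array ran from 87.4 to 307 in Bach2-/- 24 h cells, 174 to 206 in WT 24 h cells, 196 to 216 in Bach2-/- 0 h cells and 155 to 297 in WT 0 h cells. The dimmest array was Bach2-/- 24 h array 2. It also had the most outlier spots (511, against 112 to 364 on the others). Its share of spots above background was the lowest (50.9%, against 53.1% to 66.7%). The part of these array qualities in the result was not tested. On Bach2-/- 0 h array 1, 0 of 5 Y-linked probes were above background although its label says male, against 3 to 5 on the other arrays. Array 1 of every group was on slide 2, and arrays 2 and 3 were on slide 1, which was scanned on another day. All 10 B lineage markers were above background on all 12 arrays. Bach2 itself had log2 signals of 0.147, -0.855 and 0.0645 in Bach2-/- 24 h cells, against 3.71, 3.22 and 3.68 in WT 24 h cells, and of 1.33, 0.963 and 1.10 in Bach2-/- 0 h cells, against 3.99, 3.40 and 3.69 in WT 0 h cells. Its groups were far apart at both times, and it was lower in Bach2-/- cells by 2.56 ± 0.30 at 0 h (adjusted p = 0.0024) and by 3.75 ± 0.30 at 24 h (adjusted p = 5.54e-05), but no label says whether its probe lies inside the deleted stretch.

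Over the 36 members, the median log2 signal of an array was 4.64, 3.60 and 4.45 in Bach2-/- 24 h cells and 5.37, 4.59 and 4.54 in WT 24 h cells. It was 3.77, 3.50 and 3.46 in Bach2-/- 0 h cells and 3.22, 3.25 and 3.19 in WT 0 h cells. All WT 24 h arrays were above all arrays at 0 h, while Bach2-/- 24 h array 2 lay below Bach2-/- 0 h array 1. By this median array 1 was the highest of its group in 3 of the 4 groups, and not in WT 0 h cells. Taken by gene class, WT 0 h array 1 was the highest of its group by the median of every class but box C/D. Examples are the SSU processome genes (2.34, against 2.01 and 2.05) and the box C/D genes (3.49, against 4.59 and 4.30). The plot of array medians sets these levels beside the brightness of each array, whose part in the result was not tested. In whole-population RNA of this kind, a change in the share of cells that express a gene and a change in RNA per cell cannot be told apart.

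**Figure D1:**
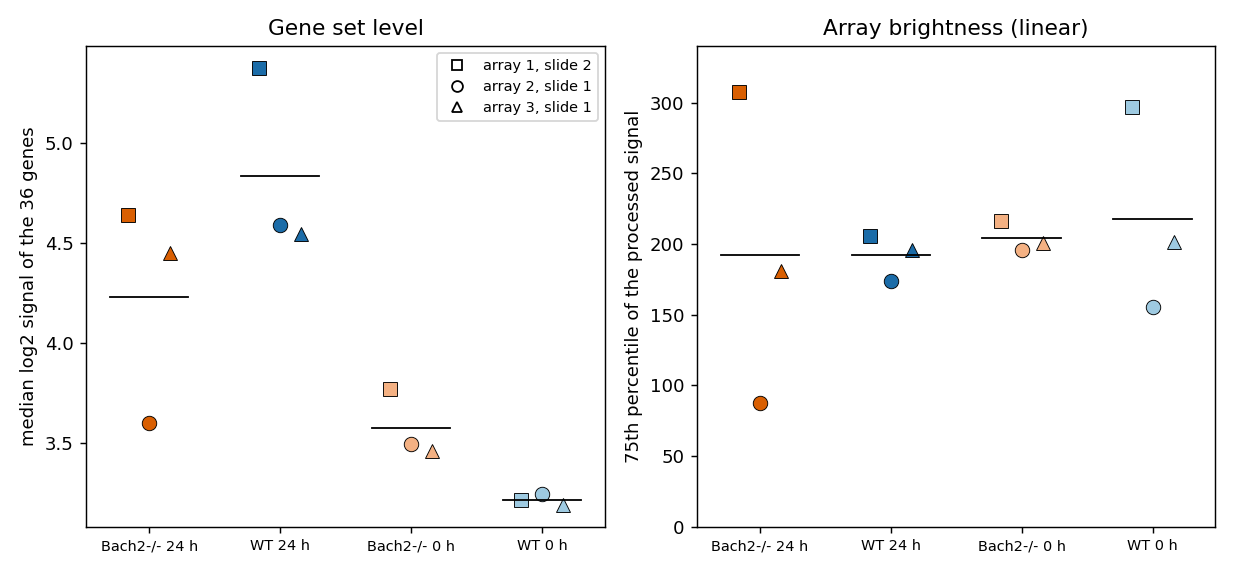
The left panel plots the median log2 signal of the 36 genes on each array, and the right panel the 75th percentile of that array's processed signal on a linear axis; symbols mark array number and slide, and bars mark group means. Bach2-/- 24 h array 2 has the lowest median of the 24 h arrays (3.60) and the lowest 75th percentile (87.4).

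Nearly the whole set was higher after 24 h of stimulation in WT cells. By limma's moderated test with Benjamini-Hochberg adjustment over all genes, 33 of the 36 members rose and 0 fell, against a background of 11.5% of all genes tested called higher and 9.06% called lower. The median change over the members was 1.82 on the log2 scale, against 0.04 over all genes. Individual changes ran from 0.87 (Pes1) to 2.61 (Odc1), or from 1.83-fold to 6.11-fold. The 3 arrays at 24 h lay above the 3 at 0 h for all 36 members, which held for 22.3% of all genes. Nop14, Bop1 and Pes1 did not pass, and all 36 passed when replicate number or slide was fitted as a block (27.6% and 26.6% of all genes called higher). Of the 33, 23 kept their call whichever single array was left out. The other 10 (Polr1b, Polr1c, Mybbp1a, Wdr43, Tsr1, Nop2, Nop16, Rrs1, Ebna1bp2 and Nle1) lost it without some array, with adjusted p-values of 0.0502 to 0.128. The count was 25 without WT 0 h array 3 (background 6.49%) and also without WT 24 h array 1 (background 6.56%). Markers of other cell types and states changed over the same 24 h. Summed signals relative to the 75th percentile were 96.6 to 160 in WT 24 h cells and 35.7 to 49.9 in WT 0 h cells for 10 T cell markers of 10 listed, and 96.4 to 176 and 59.8 to 90.2 for 5 plasma cell markers of 6 listed. For 3 follicular B markers of 4 listed they were 18.9 to 27.9 in WT 24 h cells and 285 to 360 in WT 0 h cells. Their part in the result was not tested.

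Among the RNA polymerase I genes, all 4 rose in WT cells. Polr1a, which encodes the largest subunit of the enzyme, had log2 signals of 4.96, 4.47 and 4.47 in WT 24 h cells, against 3.07, 3.24 and 3.12 in WT 0 h cells. The 24 h arrays were all more than 1 log2 unit above the 0 h arrays, and the fitted change was 1.49 ± 0.26 (adjusted p = 0.00235). Polr1b, the second-largest subunit, changed by 2.03 ± 0.51 (adjusted p = 0.0156), and Polr1c, a subunit shared with RNA polymerase III, by 2.04 ± 0.49 (adjusted p = 0.0126). Mybbp1a, a nucleolar protein that binds the polymerase I machinery and regulates rDNA transcription, changed by 1.54 ± 0.39 (adjusted p = 0.0169). Polr1b and Mybbp1a lost their calls without WT 0 h array 2, WT 0 h array 3 or WT 24 h array 1, and Polr1c without WT 0 h array 3 (adjusted p = 0.0543, the highest over its alternatives).

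All 6 snoRNP proteins rose in WT cells. For box C/D, Fbl, the methyltransferase fibrillarin, had log2 signals of 5.24, 6.11 and 6.09 in WT 24 h cells, against 3.49, 4.59 and 4.30 in WT 0 h cells. Array 1 was the lowest of its group at both times, opposite to most members. Fbl changed by 1.69 ± 0.38, and the core proteins Nop56 and Nop58 by 1.60 ± 0.36 and 1.94 ± 0.26 (adjusted p = 0.000476 to 0.00919 for the 3 genes). For box H/ACA, Nhp2 had log2 signals of 8.51, 7.62 and 7.55 in WT 24 h cells, against 5.73, 5.58 and 5.43 in WT 0 h cells. This core protein of the pseudouridylation particle rose 4.96-fold (2.31 ± 0.33, adjusted p = 0.000612). Dkc1, the pseudouridine synthase dyskerin, had 2.67, 2.58 and 2.69 in WT 24 h cells, against 0.69, 0.84 and 0.74 in WT 0 h cells. Both groups of Dkc1 were tight, and the change was 1.88 ± 0.30 (adjusted p = 0.00137). Gar1, the third member of the particle measured here, changed by 2.04 ± 0.41 (adjusted p = 0.00505). Fbl lost its call with quantile normalization (adjusted p = 0.0849, the highest over its alternatives), and the other 5 kept theirs in every alternative run.

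Of the 9 genes for the SSU processome and 40S assembly, 8 rose in WT cells, with a median change of 1.55 over the 9. Rrp12, a factor for export and maturation of pre-ribosomes, had log2 signals of 2.78, 1.88 and 1.89 in WT 24 h cells, against 0.34, 0.07 and 0.02 in WT 0 h cells. The groups were more than 1 log2 unit apart, and the change was 2.04 ± 0.37 (adjusted p = 0.00268). Rrp9, a protein of the U3 snoRNP, changed by 1.91 ± 0.43 (adjusted p = 0.00924) and the large scaffold protein Utp20 by 1.62 ± 0.28 (adjusted p = 0.00225). Heatr1, Wdr43, Wdr75, Imp4 and Tsr1 changed by 1.30 to 1.57. Nop14 had 3.12, 2.22 and 2.12 in WT 24 h cells, against 1.502, 0.99 and 0.91 in WT 0 h cells. These groups did not overlap, but array 1 stood well above the other arrays in both, and the change of 1.35 ± 0.44 did not pass (adjusted p = 0.0508). With the replicate block it did (adjusted p = 0.000385, with 0.000269 to 0.185 over the alternatives).

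Of the 11 genes for 60S assembly, 9 rose in WT cells. Rrp1b, a nucleolar protein, had log2 signals of 2.51, 2.40 and 2.38 in WT 24 h cells, against -0.06, -0.05 and 0.18 in WT 0 h cells. It had the smallest adjusted p of the set (2.41 ± 0.28, adjusted p = 0.000162) and passed in every alternative. Nop16 changed by 2.35 ± 0.59 (adjusted p = 0.0153), Ppan by 2.19 ± 0.31 (adjusted p = 0.000671), Mrto4 by 2.05 ± 0.29 (adjusted p = 0.000592) and Nle1 by 2.02 ± 0.47 (adjusted p = 0.0107). Of these, Nop16 lost its call without WT 0 h array 2, WT 0 h array 3 or WT 24 h array 1, and Nle1 without WT 0 h array 3. Bop1, Pes1 and Wdr12 encode the PeBoW complex, which acts in 60S maturation. Wdr12 rose by 1.80 ± 0.39 (adjusted p = 0.00766). Bop1 had 5.63, 4.57 and 4.44 in WT 24 h cells, against 4.20, 3.58 and 3.26 in WT 0 h cells (1.20 ± 0.48, adjusted p = 0.107). Pes1 had 4.37, 3.48 and 3.65 in WT 24 h cells, against 3.22, 2.67 and 3.0 in WT 0 h cells (0.87 ± 0.40, adjusted p = 0.155). All 3 numbered pairs of Bop1 and Pes1 were higher at 24 h, so both passed with the replicate block (adjusted p = 0.000919 and 0.00443), while over the alternatives their adjusted p ran up to 0.344 and 0.432.

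The 5 abundant nucleolar proteins all rose in WT cells. Npm1, the histone chaperone nucleophosmin, had log2 signals of 9.24, 8.55 and 8.62 in WT 24 h cells, against 7.07, 7.08 and 7.07 in WT 0 h cells. The 0 h arrays were nearly identical, and the change was 1.73 ± 0.26 (adjusted p = 0.000988). Ncl, the RNA-binding protein nucleolin, changed by 1.998 ± 0.35, Gnl3, the GTPase nucleostemin, by 2.23 ± 0.41, the RNA helicase Ddx21 by 1.84 ± 0.28 and the phosphoprotein Nolc1 by 1.99 ± 0.47 (adjusted p = 0.000903 to 0.0114 for these 4 genes). Odc1 had 7.18, 5.98 and 5.91 in WT 24 h cells, against 4.22, 3.54 and 3.47 in WT 0 h cells. Its change was 6.11-fold, the largest of the 36 (2.61 ± 0.43, adjusted p = 0.00167).

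**Figure D2:**
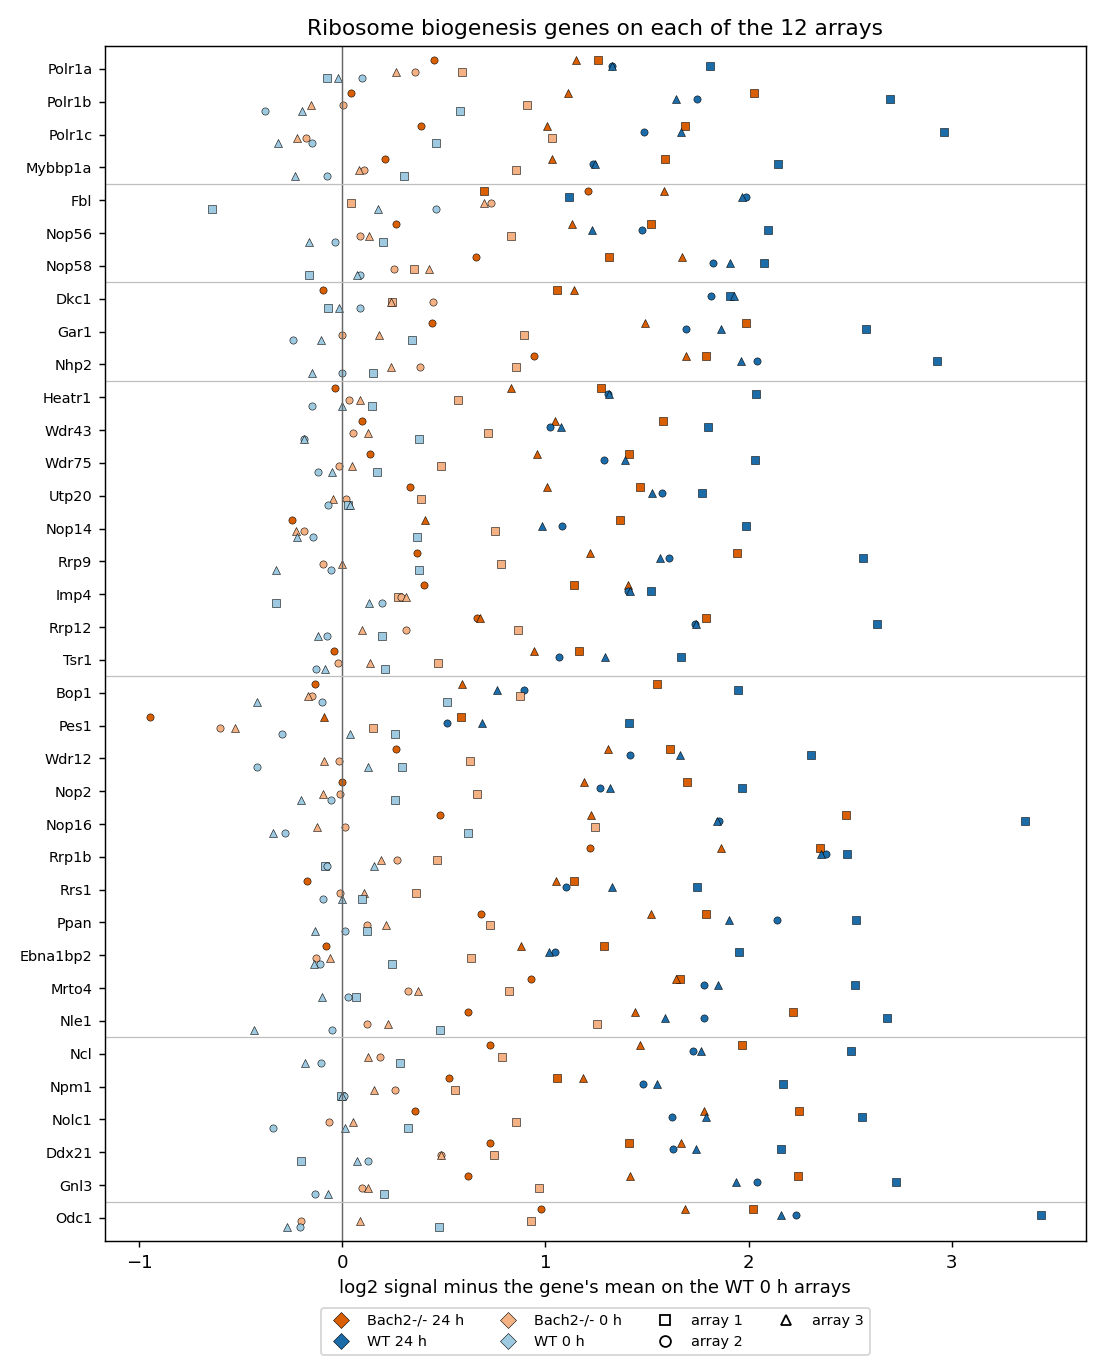
Each row is a gene and each symbol an array, placed at its log2 signal minus the mean of that gene on the WT 0 h arrays; colours give the group, symbols the array number and grey lines part the roles. In WT cells all 36 genes have the 24 h arrays to the right of the 0 h arrays, and Bach2-/- 24 h array 2 is the lowest of its group for 35 of the 36.

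In Bach2-/- cells few of the changes over 24 h passed the test. Only 1 of the 36 members, Rrp1b, rose by the limma test and 0 fell, against a background of 5.51% of all genes called higher and 7.74% called lower. At an unadjusted p under 0.05, 16 of the 36 were higher (background 11%). All 36 changes were above 0, with a median of 0.73 on the log2 scale (0.07 over all genes) and a range of 0.18 (Pes1) to 1.502 (Rrp1b), or 1.13-fold to 2.83-fold. The 24 h arrays lay above the 0 h arrays for 6 members, Nop58, Nhp2, Imp4, Rrp1b, Mrto4 and Odc1 (16.7%, against 11.4% of all genes). With the replicate block 26 members rose (background 16.7%), and with a slide block also 26 (background 15.3%). On slide 1 alone 7 rose (background 9.03%).

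Much of this rested on Bach2-/- 24 h array 2. It was the lowest of its group for 35 of the 36 members, and it lay above every Bach2-/- 0 h array for 7 members only, while arrays 1 and 3 did so for 29. Without it 19 members rose (background 6.88%) and the median change was 1.07. Leaving out Bach2-/- 24 h array 1 moved the median the other way, to 0.49, with 34 of 36 changes above 0 and 1 member past the test (background 4.39%). The count was 4 without WT 24 h array 1 (background 5.78%) and 2 without Bach2-/- 0 h array 1 (background 5.24%). Without both Bach2-/- arrays singled out above it was 24 (background 8.21%), with a median of 1.23. The summed T cell markers were 86 to 108 in Bach2-/- 24 h cells and 36 to 42.8 in Bach2-/- 0 h cells, and the plasma cell markers 124 to 238 and 75.5 to 165, and their part in the result was not tested.

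Rrp1b had log2 signals of 2.37, 1.24 and 1.89 in Bach2-/- 24 h cells, against 0.49, 0.29 and 0.21 in Bach2-/- 0 h cells. The groups were well apart on all arrays, and the change was 1.502 ± 0.28 (adjusted p = 0.0032), a call kept in every alternative. Odc1 had 5.77, 4.72 and 5.43 in Bach2-/- 24 h cells, against 4.68, 3.54 and 3.83 in Bach2-/- 0 h cells (1.29 ± 0.43, adjusted p = 0.0787). Nhp2 had 7.37, 6.52 and 7.27, against 6.44, 5.97 and 5.82 in Bach2-/- 0 h cells (0.98 ± 0.33, adjusted p = 0.0765). Neither overlapped, and both passed with the replicate block (adjusted p = 0.000563 for Odc1 and 0.00509 for Nhp2, with 0.000563 to 0.295 and 0.00407 to 0.25 over the alternatives). Dkc1 had 1.82, 0.67 and 1.90, against 1.01, 1.21 and 1.00 in Bach2-/- 0 h cells. Here array 2 fell below all 0 h arrays while arrays 1 and 3 lay above them, and the change of 0.39 ± 0.30 did not pass (adjusted p = 0.546, or 0.298 with the replicate block). Pes1 had 3.55, 2.02 and 2.88, against 3.11, 2.36 and 2.43, with the same crossing on array 2 (0.18 ± 0.40, adjusted p = 0.899).

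As a share of the log2 change in WT cells, the change in Bach2-/- cells had a median of 42.3%. It ran from 20.2% (Pes1) and 20.7% (Dkc1) to 59.3% (Nolc1) and 62.4% (Rrp1b), and was under 50% for 31 members. These shares depended on single arrays. The median change in Bach2-/- cells was 0.73 on all arrays, 1.07 without Bach2-/- 24 h array 2 and 0.49 without Bach2-/- 24 h array 1. They also depended on the probe, since other probes of Nolc1 and Ncl changed by 0.13 and -0.06 in Bach2-/- cells. By role the median change was 0.70 for the polymerase I genes, 0.67 for box C/D, 0.95 for box H/ACA, 0.62 for the SSU processome genes, 0.89 for 60S assembly and 1.02 for the abundant nucleolar proteins, against 1.78, 1.69, 2.04, 1.55, 1.80 and 1.99 in WT cells. The plot of the responses shows every gene below the line of equal change. The standard error of a single gene was 0.26 to 0.59. It includes array shifts that the genes share, since array medians of the set had a pooled standard deviation of 0.37 within groups. It therefore does not measure the difference between genes, and their order within the set was not tested.

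**Figure D3:**
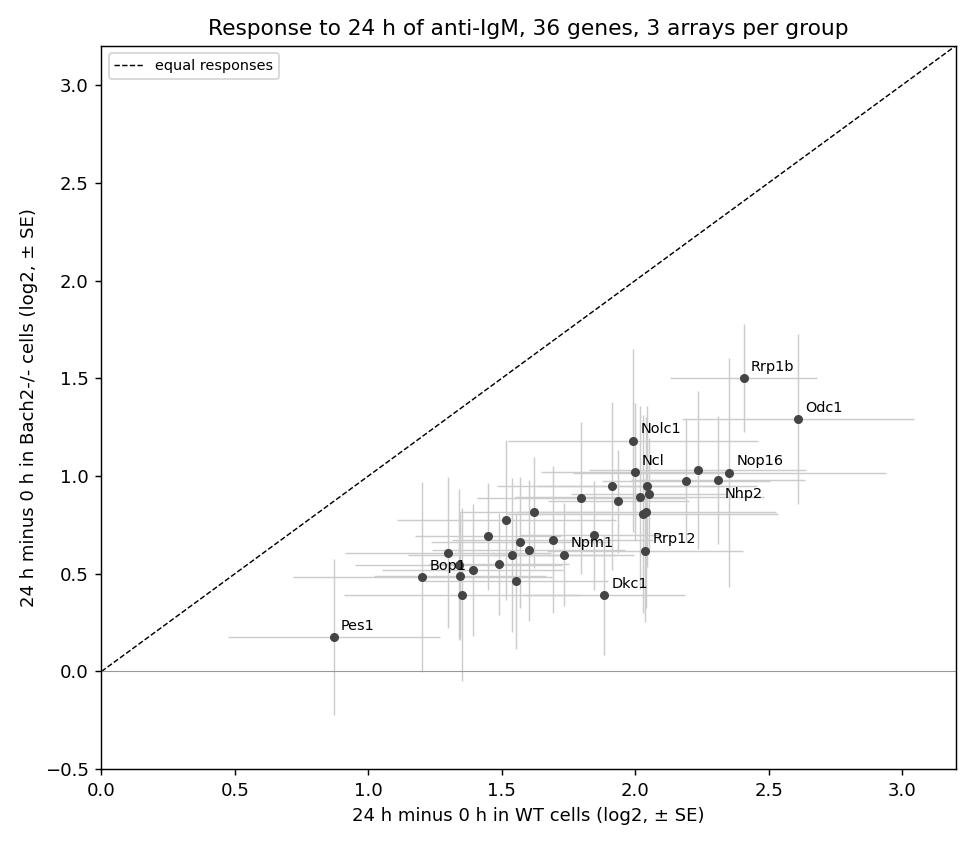
Each point is a gene, with its 24 h minus 0 h difference in WT cells on the x axis and in Bach2-/- cells on the y axis (log2, bars ± SE, 3 arrays per group); the dashed line marks equal changes. All 36 points lie above 0 on both axes and below the dashed line.

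At 24 h every member had a lower mean signal in Bach2-/- cells than in WT cells, but no member passed the test. By limma 0 of the 36 members differed, against a background of 3% of all genes called in either direction and 0.835% called lower, and 11 were lower at an unadjusted p under 0.05 (background 5.71%). All 36 differences were below 0, with a median of -0.72 on the log2 scale (-0.05 over all genes) and a range of -1.18 (Dkc1) to -0.39 (Wdr43). The 3 Bach2-/- arrays lay below the 3 WT arrays for 12 members (33.3%, against 7.62% of all genes). Within each of the 3 numbered pairs of arrays, Bach2-/- was lower than WT for all 36 members, which held for 32.1% of all genes. The pair medians were -0.62, -1.16 and -0.35 for numbers 1, 2 and 3. The labels state no pairing. The replicate numbers were taken to pair the samples because same-numbered arrays deviated together in all 18 pairs between groups (r = 0.47 to 0.89). This choice was read from these same arrays, and the counts with the block rest on it. On slide 1 same-numbered arrays correlated at 0.47 to 0.75 and arrays of different numbers at 0.25 to 0.64. These ranges overlap, so the numbers in part stand for the slides. With the number as a block, 23 members fell (background 10.7%), and with slide as a block 17 fell (background 8.57%).

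The size of the genotype difference depended on Bach2-/- 24 h array 2. Without it the median was -0.36, 34 of the 36 members were below 0 and 0 passed. Wdr43 and Nolc1 were then at 0.014 and 0.023. Without Bach2-/- 24 h array 1 the median was -0.96, with all 36 below 0 and 0 past the test. Slide 2 alone, which lacks Bach2-/- 24 h array 2, gave a median of -0.62 from 1 array per group. Slide 1 gave -0.74, with 1 member past the test (Rrp12, background 1.09% lower). With number 2 left out of every group and the block kept, an alternative chosen after the data were seen, 4 members fell (Polr1c, Dkc1, Rrp12 and Pes1, background 3.55%) and the median was -0.48.

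Dkc1 showed the largest difference, with 1.82, 0.67 and 1.90 in Bach2-/- 24 h cells, against 2.67, 2.58 and 2.69 in WT 24 h cells. The groups did not overlap, and arrays 1 and 3 of Bach2-/- cells alone were more than 0.5 log2 units below every WT array. The difference of -1.18 ± 0.30 had an adjusted p of 0.0673, and of 0.0163 with the replicate block (0.0163 to 0.352 over the alternatives). Rrp12 had 1.93, 0.81 and 0.82 in Bach2-/- 24 h cells, against 2.78, 1.88 and 1.89 in WT 24 h cells. Bach2-/- array 1 lay above WT arrays 2 and 3, so the groups overlapped, yet each pair differed by nearly the same amount. The difference was -0.99 ± 0.37 (adjusted p = 0.255), and with the block Rrp12 had the smallest adjusted p of the set (0.00586, with 0.00467 to 0.68 over the alternatives). Odc1 had 5.77, 4.72 and 5.43, against 7.18, 5.98 and 5.91 in WT 24 h cells (-1.05 ± 0.43, adjusted p = 0.335). Its Bach2-/- arrays were all below its WT arrays, and with the block its adjusted p was 0.00658 (to 0.827 over the alternatives).

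Npm1 had 8.13, 7.60 and 8.26 in Bach2-/- 24 h cells, against 9.24, 8.55 and 8.62 in WT 24 h cells. These groups also did not overlap (-0.81 ± 0.26, adjusted p = 0.173, and 0.0193 with the block, with 0.0193 to 0.598 over the alternatives). Pes1 had 3.55, 2.02 and 2.88, against 4.37, 3.48 and 3.65 in WT 24 h cells (-1.02 ± 0.40, adjusted p = 0.293, and 0.00779 with the block, to 0.75 over the alternatives). Polr1c had 5.43, 4.13 and 4.75, against 6.71, 5.23 and 5.41 (-1.01 ± 0.49, adjusted p = 0.438, and 0.00837 with the block, 0.00797 to 0.942 over the alternatives). For Pes1 and Polr1c, Bach2-/- array 1 was above WT array 2 of slide 1. In all, Bach2-/- array 1 lay above WT arrays 2 and 3 for 18 members. The members that fell with the block included all 3 box H/ACA genes, 7 of 9 SSU processome genes, 5 of 11 60S assembly genes, 3 of 5 abundant nucleolar genes and 2 each of the box C/D and polymerase I genes. Wdr43, a processome protein with the smallest difference, had 4.52, 3.03 and 3.98, against 4.73, 3.96 and 4.01 in WT 24 h cells. Its array 3 values were level (-0.39 ± 0.39, adjusted p = 0.756).

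Markers of other cells also differed between the genotypes at 24 h. Summed signals relative to the 75th percentile were 12.1 to 35.4 in Bach2-/- cells and 2.92 to 4.04 in WT cells for 4 erythroid and platelet markers, of 8 listed. They were 11.2 to 50.7 and 0.77 to 10.2 for 6 neutrophil markers of 8 listed. The sum of 3 follicular B markers of 4 listed was 9.12 to 20.7 in Bach2-/- cells and 18.9 to 27.9 in WT cells, against 272 to 396 and 285 to 360 at 0 h. Erythroid and platelet markers were above background on every array of the group for all 4 genes in Bach2-/- 24 h cells and for 2 of 4 in WT 24 h cells. T cell markers summed to 86 to 108 and 96.6 to 160, and those of plasma cells to 124 to 238 and 96.4 to 176 (10 of 10 and 5 of 6 markers). Their part in the result was not tested.

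**Figure D4:**
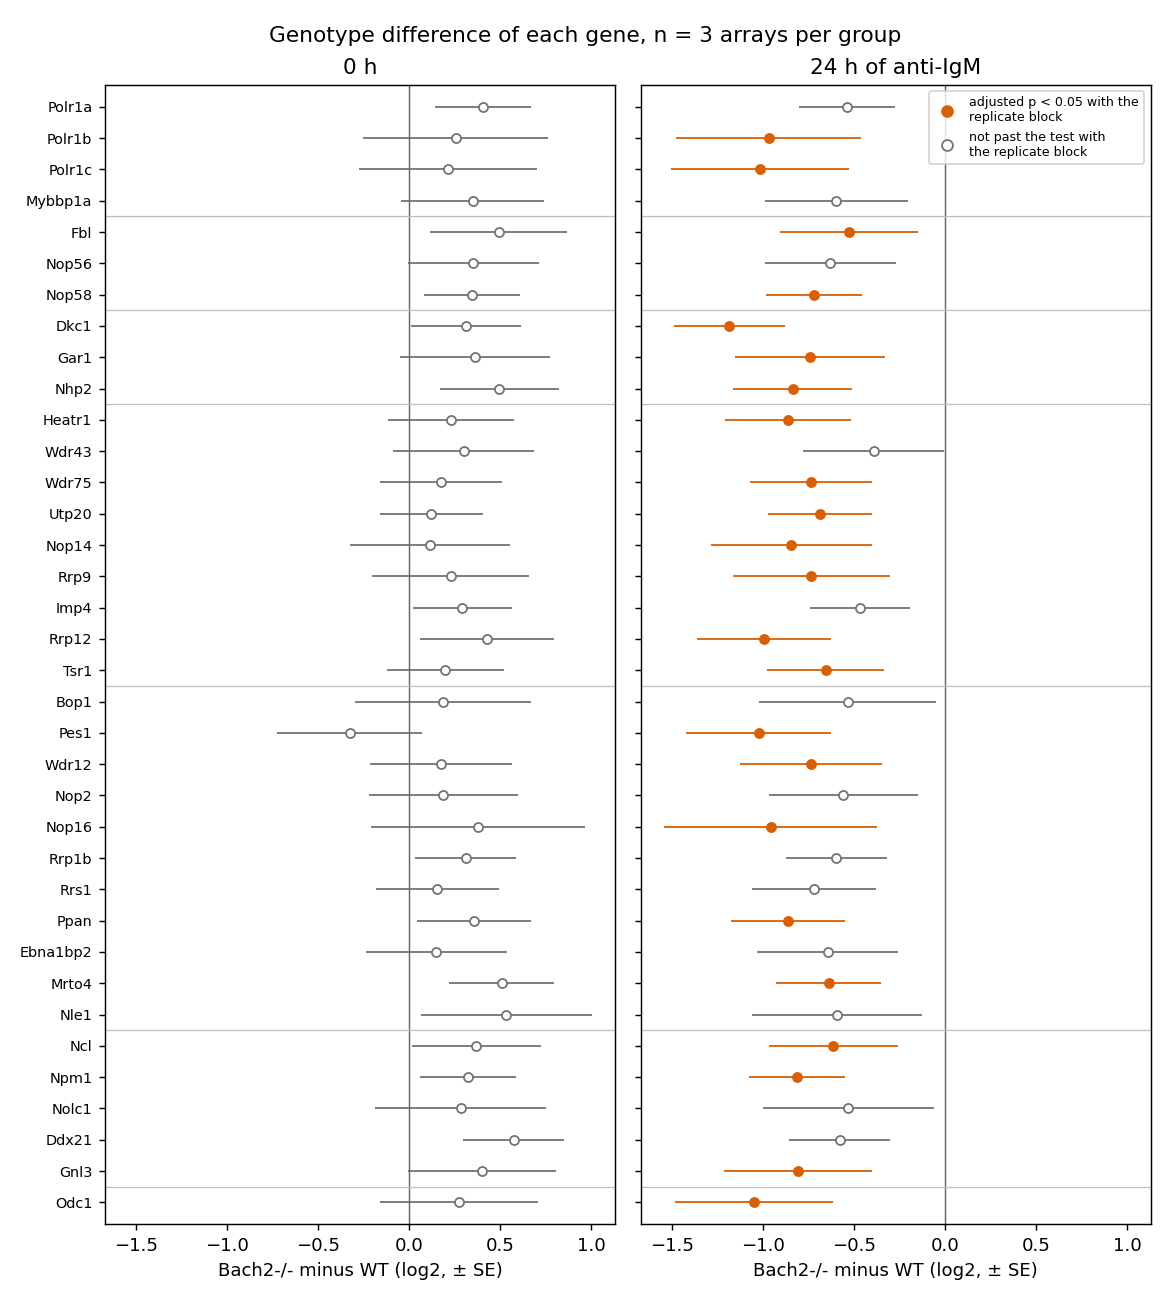
Each row is a gene, with its Bach2-/- minus WT difference (log2, ± SE, 3 arrays per group) at 0 h in the left panel and after 24 h in the right panel; filled points passed with the replicate block. At 24 h all 36 points lie below 0 and 23 are filled, while at 0 h 35 lie above 0 and 0 are filled.

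At 0 h, before stimulation, no member passed the test between the genotypes. By limma 0 of the 36 passed (background 0.628% of all genes in either direction), 0 also with the replicate block (background 3.73%), and 0 at an unadjusted p under 0.05 (background 3.91% higher and 2.2% lower). The differences were small and mostly above 0, with a median of 0.30 on the log2 scale (0.03 over all genes) and 35 of 36 above 0. For 9 members (25%, against 7.2% of all genes) the Bach2-/- arrays lay above the WT arrays. Ddx21 had the largest difference, with 4.16, 3.89 and 3.89 in Bach2-/- 0 h cells, against 3.21, 3.53 and 3.48 in WT 0 h cells. Its groups were separate but the difference did not pass (0.57 ± 0.28, adjusted p = 0.89). Pes1, the exception, had 3.11, 2.36 and 2.43, against 3.22, 2.67 and 3.0 (-0.33 ± 0.40, adjusted p = 1). Without Bach2-/- 0 h array 1, the array without Y-linked signal, the median was 0.09 and 23 members were above 0. Slide 1 gave a median of 0.21 and slide 2 of 0.52. Summed erythroid and platelet markers were 34.1 to 103 in Bach2-/- 0 h cells and 8.73 to 17.9 in WT 0 h cells, and neutrophil markers 29 to 54 and 1.68 to 29.5, and their part in the result was not tested.

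The difference between the responses combines these comparisons and shares their arrays. No member passed (limma, 0 of 36, background 0.33%), and 11 were lower at an unadjusted p under 0.05 (background 3.51%). All 36 estimates were below 0, with a median of -0.98 on the log2 scale (-0.09 over all genes) and a range of -1.495 (Dkc1) to -0.69 (Wdr43). Within each of the 3 numbers all 36 differences were below 0 (32.4% of all genes), with medians of -1.10, -1.31 and -0.57. With the replicate block 8 members passed as lower (background 2.56%), namely Polr1c, Fbl, Nhp2, Rrp12, Nop16, Mrto4, Npm1 and Odc1. With a slide block 6 passed (background 2.05%), Mrto4 and Npm1 being lost.

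Dkc1 differed in response by -1.495 ± 0.43 (adjusted p = 0.317, and 0.0531 with the block), Rrp12 by -1.42 ± 0.52 (0.529, and 0.0172 with the block), and Odc1 by -1.32 ± 0.61 (0.705, and 0.0305 with the block). Over the alternatives the adjusted p of these genes reached 0.635, 1 and 1. Rrp12 was the most even, at -1.51, -1.46 and -1.28 for numbers 1, 2 and 3. Dkc1 was at -1.17, -2.27 and -1.05, so number 2 was the largest, while Nolc1 was at -0.83, -1.54 and -0.055. The standard deviation over the 36 members was 0.21, and the median standard error of 1 member was 0.53. That error includes array shifts shared by the members, so it does not measure the difference between members, which was not tested. Without Bach2-/- 24 h array 2 the median was -0.66 with all 36 below 0, and without both Bach2-/- arrays singled out it was -0.42 with 34 below 0. With number 2 left out of every group and the block kept, 0 members passed and the median was -0.83.

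**Figure D5:**
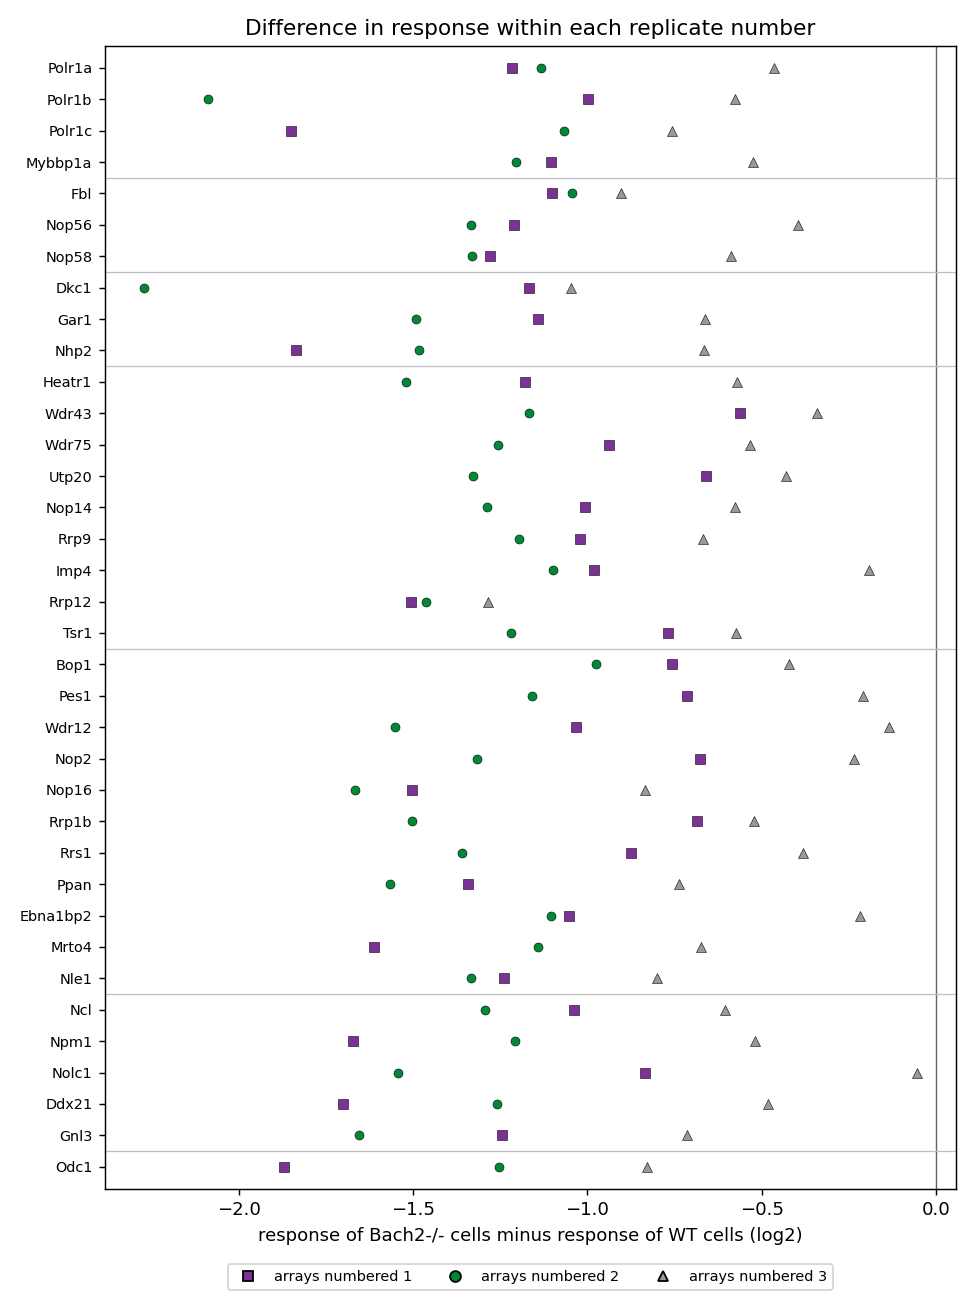
Each row is a gene and each symbol the response of Bach2-/- cells minus the response of WT cells within 1 replicate number (log2). All 108 values lie left of 0, and the value of number 3 is the closest to 0 for all 36 genes.

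Several probes per gene gave a check within the arrays for 10 members. The direction of the 24 h genotype difference and of the response difference was the same for every tested probe of these 10. The sizes of the 24 h genotype difference were furthest apart for Ebna1bp2, with -1.17 and -0.80 on its other probes, against -0.64 for the reported probe. The Ebna1bp2 probe at -1.17 was also lower in Bach2-/- cells at 0 h (-0.35, against 0.15). The sizes of the change in WT cells differed most for Ncl, Nolc1 and Pes1. The other Ncl probe changed by -0.06 in Bach2-/- cells and by 0.75 in WT cells, against 1.02 and 1.998 for the reported probe. The other Nolc1 probe changed by 0.13 in Bach2-/- cells and by 1.07 in WT cells, against 1.18 and 1.99. The other Pes1 probe changed by 1.78 in WT cells, against 0.87. It had a response difference of -1.78, against -0.69, and at 0 h it was higher in Bach2-/- cells (0.46, against -0.33). The 4 probes of Npm1 gave 24 h genotype differences of -0.81 to -0.55 and the 3 of Odc1 -1.05 to -0.79.

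Members with an E-box in the promoter windows shown above had lower median changes than the other matched members, a description with no test. In Bach2-/- cells the median 24 h change was 0.65 for the 8 members with CACGTG and 0.89 for the 23 without, and in WT cells 1.48 and 1.99. The ranges overlapped, from 0.87 to 2.02 with the motif and from 1.34 to 2.61 without it in WT cells. Myc itself had log2 signals of 4.37, 2.05 and 3.62 in Bach2-/- 24 h cells, against 4.80, 3.89 and 3.84 in WT 24 h cells. At 0 h it had 3.48, 2.43 and 2.42 in Bach2-/- cells, against 2.39, 1.31 and 1.98 in WT cells. Over 24 h Myc changed by 0.57 ± 0.56 in Bach2-/- cells (adjusted p = 0.664) and rose by 2.28 ± 0.56 in WT cells (adjusted p = 0.0138). Its response difference of -1.71 ± 0.79 did not pass (adjusted p = 0.698, and 0.0501 with the block), nor did its genotype difference at 24 h (-0.83 ± 0.56, adjusted p = 0.623) or at 0 h (0.88 ± 0.56, adjusted p = 1).

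Other ribosome biogenesis genes were held in 5 lists, with 119 genes tested of 126 listed. In Bach2-/- cells 1 of the 119 rose, the SSU factor Nol10 (1.30 ± 0.36, adjusted p = 0.0318), with a median of 0.37 and a background of 5.51%. With the replicate block 32 rose (background 16.7%) and 1 fell (3816 of all 22753 genes). In WT cells 48 rose and 0 fell, with a median change of 0.98 and a background of 11.5% called higher. Dis3, the catalytic exosome subunit (2.12 ± 0.40), and Nat10, the RNA cytidine acetyltransferase (2.10 ± 0.27), changed most. At 24 h the median genotype difference was -0.52, 115 of the 119 were below 0, and 1 fell, Nol9, a polynucleotide kinase of pre-rRNA processing (-0.98 ± 0.22, adjusted p = 0.0368, background 0.835% lower). With the block 41 fell (background 10.7%) and 1 was higher (1816 of all 22753 genes). The response difference had a median of -0.59 with 0 past the limma test (background 0.33%). At an unadjusted p under 0.05, 9 were lower (background 3.51%) and 1 higher (833 of all 22753 genes). With the block 7 were lower (background 2.56%). At 0 h 0 of the 119 passed (background 0.628%), and 1 was higher at an unadjusted p under 0.05 (background 3.91%). The median was 0.12 and 34 of the 119 were below 0. By list, and against the same 11.5% of all genes, the counts that rose in WT cells were 18 of 41 for the SSU processome, 17 of 45 for 60S assembly, 5 of 8 for RNA polymerase I, 4 of 11 for snoRNP assembly and 4 of 14 for the exosome.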

How the data were processed

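Total RNA of 12 samples was hybridised to 1 array each, and scanned and quantified by the authors with Agilent Feature Extraction 10.7.3.1, per the file headers. The deposited intensity of a spot is a signal after local background subtraction and detrending, per the file headers. The deposited value table held log2 values from the authors, whose scale and centring are not stated. They matched the log2 processed signal minus each array's 75th percentile, centred on each probe's median over arrays (r = 0.99933 to 0.99987), with the sign unchanged. By group, the medians of its columns (arrays 1, 2, 3) were these: in Bach2-/- 24 h cells -0.27, 0.49, 0.071, in WT 24 h cells -0.27, 0.11, 0.011, in Bach2-/- 0 h cells -0.26, -0.097, -0.031, in WT 0 h cells -0.039, 0.16, 0.014. The number of arrays limits the precision.

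Here the processed signal of 55681 probes (59305 spots that are no controls, outlier spots left out) was divided by the 75th percentile of its array, floored at 0.01 and put on the log2 scale. Probes were used where any group had them well above background on each of its 3 arrays, which held for 30755. Probe names came from RefSeq through the accession on the array (26413 probes), and the probe with the highest mean stood for its gene. All 22753 genes were fitted with limma 3.58.1 (R 4.3.3, with the data.table package at version 1.17.8) as 4 group means over 12 arrays, with 5 contrasts, empirical Bayes and a two-sided Benjamini-Hochberg adjusted p threshold of 0.05. Values after ± are standard errors of the fit. For a single gene, an exact permutation of 3 against 3 arrays cannot give a p below 0.1. The fit was tested on simulated data with known changes.

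The replicate numbers of the labels were taken to pair the samples, since deviations from group means correlated at 0.47 to 0.89 in all 18 same-numbered pairs. On slide 1, arrays of different numbers also correlated (0.25 to 0.64), and across slides r was -0.81 to -0.42, so the numbers in part stand for the slides. Deviations within a group sum to 0, which by itself pushes the values across slides below 0. The labels state no pairing, so the block rests on a choice read from these same arrays. Alternatives were 13 planned settings, among them leaving out each of the 12 arrays, and 2 chosen after seeing the data. The members and gene lists were chosen with earlier results of these data known. By rule, all members were named, and of other genes Bach2, Myc and, per comparison, at most the 2 with the largest change in each direction among those past the test. Promoters came from a RefSeq table of build GRCm38.p6, while the array design names build mm9, from which no coordinate was used.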

Additional observations from a re-analysis of the deposited data

How the results depend on the processing

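The 33 increases in WT cells came to 31 to 36 under the other settings, and to 25 to 34 with 1 array left out. Over all genes 2606 increases were called as reported, 1847 to 6387 under the other settings and 1476 to 3021 with 1 array left out. The number of increases in Bach2-/- cells depended most on the setting. Brackets give the number of all 22753 genes called in the same direction. The members numbered 1 as reported (1254), 14 with quantile normalization (1745) and 8 with arrays centred on the median of probes above background everywhere (1546). They numbered 2 with only those probes (912 of 18877 genes) and 3 when all probes of a gene were averaged (1388). With the replicate block it was 26 (3798), with the slide block 26 (3475) and on slide 1 alone 7 (2055). Without both Bach2-/- arrays singled out above it was 24 (1867), with a median of 1.23. It was 5 with the percentile over spots (1411) and 35 without number 2 in every group with the replicate block (3759). With 1 array left out it ran from 1 to 19 (817 to 1565). The number of decreases between the genotypes at 24 h was 23 with the replicate block (2429) and 17 with the slide block (1951). It was 1 on slide 1 alone (249), 4 without number 2 with the replicate block (807) and 0 in every other setting. The smaller response in Bach2-/- cells was called for 8 members with the replicate block (582) and 6 with the slide block (467). Its median was -0.42 without both Bach2-/- arrays. The cause of these moves was not tested. At 0 h no setting called a member.

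Quantile normalization gave smaller medians for the members, -0.52 for the genotype difference at 24 h and 1.52 for the WT response, with the median of all genes shifted by 0.0078 and -0.039. No scaling shifted the median of all genes by over 0.1. Among all genes, the calls at 24 h numbered 682 as reported and 294 to 4245 over the alternatives. In Bach2-/- cells over time they numbered 3016 and 1950 to 7614, in WT cells 4667 and 2891 to 10950, between responses 75 and 30 to 976, and at 0 h 143 and 61 to 848.

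Changes of sign concerned only values that passed no test. At 0 h, Pes1 was at 0.066 and Ebna1bp2 at -0.022 with averaged probes, and Nop14 at -0.022 on slide 1 alone. Without both Bach2-/- arrays, and likewise without Bach2-/- 0 h array 1 alone, 12 genotype differences at 0 h turned below 0, and with 1 array left out they reached as high as the second value given for each. These were -0.073 and 0.54 for Polr1b, -0.20 and 0.44 for Polr1c, -0.012 and 0.20 for Utp20, -0.21 and 0.30 for Nop14, -0.048 and 0.42 for Rrp9, -0.16 and 0.44 for Bop1, -0.054 and 0.32 for Wdr12, -0.052 and 0.33 for Nop2, -0.055 and 0.69 for Nop16, -0.094 and 0.29 for Ebna1bp2, -0.0049 and 0.45 for Nolc1 and -0.059 and 0.51 for Odc1. At 24 h, without both arrays or without Bach2-/- 24 h array 2, Wdr43 was at 0.014 and Nolc1 at 0.023, with lowest values of -0.73 and -0.92 when another array was left out. In Bach2-/- cells over time, Nop14 ran from -0.035 to 0.77 and Pes1 from -0.19 to 0.57, both lowest without Bach2-/- 24 h array 1. Without both arrays the difference of responses was 0.027 for Bop1 and 0.028 for Nolc1.

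With 3 arrays per group, the standard error of a genotype difference had a median of 0.37 on the log2 scale over the members. Signals of the members were well above background and unsaturated throughout, so no value was cut off at either end. The part of array brightness in the result was not tested.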

Other observations

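Odc1 belongs to the polyamine pathway, of which 12 of 13 other listed genes were tested. In Bach2-/- cells, 1 of the 12 rose by limma over 24 h (Smox), against 5.51% of all genes, and in WT cells 4 rose (Srm, Smox, Paox and Eif5a), against 11.5% of all genes. Srm, spermidine synthase, changed by 1.29 ± 0.42 in Bach2-/- cells (adjusted p = 0.0733) and by 2.50 ± 0.42 in WT cells (adjusted p = 0.00189). Smox, spermine oxidase, which breaks spermine down to spermidine, went the other way from Odc1 between the genotypes. At 24 h Smox was higher in Bach2-/- cells than in WT cells by 3.22 ± 0.35 on the log2 scale (adjusted p = 0.000353), while Odc1 was at -1.05 ± 0.43. Over 24 h Smox rose by 3.23 ± 0.35 in Bach2-/- cells (adjusted p = 7.45e-05) and by 1.60 ± 0.35 in WT cells (adjusted p = 0.00751). The difference between these Smox responses, 1.63 ± 0.49, did not pass (adjusted p = 0.351), and at 0 h Smox was already higher by 1.58 ± 0.35 in Bach2-/- cells (adjusted p = 0.0783, or 0.0138 in the fit blocked by replicate number).

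The exosome, which trims the precursor RNA, had 14 genes tested. Their median change over 24 h was 0.34 in Bach2-/- cells, where 0 passed the limma test as higher (background 5.51%). There 1 was higher at an unadjusted p under 0.05 (background 11%), and 3 rose with the replicate block (background 16.7%). In WT cells the median change was 0.97 and 4 rose (background 11.5%). At 24 h the median genotype difference of the 14 was -0.42 and 12 were below 0. By limma 0 of these differences passed (background 3%). At an unadjusted p under 0.05, 1 was higher (1531 of all 22753 genes) and 1 lower (background 5.71%).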
